A study of Homo sapiens with 8 samples.

Results

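The 10 genes described here encode proteins that take a cell through mitosis and divide it: the kinases AURKA, AURKB, PLK1 and CDK1, the cyclins CCNB1, CCNB2 and CCNA2, the APC/C activator CDC20, the DNA topoisomerase TOP2A and the scaffold protein ANLN. They were chosen by symbol, and all 10 were found among the 16796 genes of the count files. All 10 mRNAs fell in cells treated with the O-GlcNAc transferase (OGT) inhibitor. AURKA fell to 39.4% of control and PLK1 to 42.2%, whereas AURKB was at 77.0% of control. Of all genes with a q-value, 24.0% were called lower.

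RNA-seq was performed on LX-2 cells, an immortalized human line of hepatic stellate cells, the cells that make matrix in the injured liver. The 4 control cultures received the vehicle DMSO and the 4 OGTi cultures received OSMI-1 at 50 µM, in both cases for 24 h and in medium with 5% fetal bovine serum. OSMI-1 blocks OGT, the enzyme that adds single N-acetylglucosamine sugars to proteins of the nucleus and cytosol. Every library comes from the same line, so the replicates are independent experiments on a single genetic background, and neither another dose nor another time was measured here.

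Library totals lay between 24166756 and 28201215 expected counts. OGT mRNA itself was 5636 ± 260 normalized counts in control and 4146 ± 477 in OGTi (mean ± SD, n = 4), which is not a check of the inhibitor, since OSMI-1 acts on the enzyme. All 7 stellate markers were present, with a summed level per transcript length of 6076 to 7362 in control and 4960 to 6400 in OGTi. The sum hides falls of single markers, because VIM had the highest counts in every library (84407 to 102656 against 78754 to 119884). COL1A1 had 80309 to 85553 counts in control and 40479 to 50437 in OGTi, and COL3A1 3398 to 7059 against 739 to 1017. For COL1A2, PDGFRB, ACTA2 and TAGLN, every OGTi library was likewise below every control library. Of the 5 hepatocyte markers, ALB, TTR, HNF4A and CYP3A4 had no row and APOA1 reached 1 count at most. In the immune list, CD68, a lysosomal protein gene of macrophages that other cells also express, had 2568 to 3868 counts in control and 5488 to 10182 in OGTi, while the pan-leukocyte gene PTPRC had 10 counts at most in any library. The summed immune level was 143 to 232 in control and 323 to 563 in OGTi, with MARCO and CD3E without a row. The summed cholangiocyte level, mostly SOX9, was 20.7 to 33.5 against 26.5 to 37.5, and the endothelial level was 0.85 to 1.67 against 0.23 to 0.47. The part of these markers in the results was not tested.

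Entry into mitosis is driven by CDK1 bound to A- and B-type cyclins. Aurora and Polo-like kinases build the spindle, correct chromosome attachments and set up the cleavage furrow, and the APC/C with CDC20 then marks B cyclins for destruction. Their genes are transcribed mainly in late S, G2 and M phase, under the DREAM complex, B-MYB and FOXM1, through the cell cycle genes homology region (CHR, TTTGAA or TTCGAA) and the CCAAT box read by NF-Y. Because bulk RNA was measured, fewer cells in G2 and mitosis and less of these mRNAs per cell cannot be told apart.

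The promoter stretches of 7 of these genes are shown because they carry the letters that cell cycle regulation of this class is known for. Capitals mark TTTGAA and CCAAT, or TTCAAA and ATTGG where the motif lies on the other strand. Each stretch reads 5′ to 3′ on the gene's own strand and comes from RefSeq (GRCh38.p14). The promoters of PLK1, CCNB2, CDC20, CDK1 and TOP2A hold both motifs, although the CCAAT of PLK1, at -73 from the start, lies outside the stretch shown. The CDK1 stretch is from its upstream start site, with TTTGAA at -161 and CCAAT at -150. Its other start site, which is not shown, held TTTGAA at -69, -13 and 10 and CCAAT at -78 and -46, counting both strands. ANLN holds only TTTGAA, and CCNB1 holds only CCAAT. The PLK1 and ANLN stretches lie within exons of non-canonical transcripts of the same gene, and that of ANLN also within MATCAP2; the other stretches overlap no gene of GENCODE release 44.
PLK1, chr16:23678854-23678883, + strand: gccgcgTTTGAAttcggggaggagcggagc
CCNB2, chr15:59105006-59105125, + strand: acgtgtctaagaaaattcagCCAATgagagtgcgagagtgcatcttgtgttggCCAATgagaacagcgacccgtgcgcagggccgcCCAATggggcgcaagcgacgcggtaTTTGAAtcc
CDC20, chr1:43358841-43358980, + strand: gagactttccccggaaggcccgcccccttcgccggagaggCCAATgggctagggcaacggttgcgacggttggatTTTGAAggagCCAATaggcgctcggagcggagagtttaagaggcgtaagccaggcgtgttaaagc
CDK1, chr10:60778156-60778295, + strand: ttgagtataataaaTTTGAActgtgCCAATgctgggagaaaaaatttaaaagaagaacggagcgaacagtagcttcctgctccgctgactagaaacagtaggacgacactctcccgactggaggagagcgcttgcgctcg
TOP2A, chr17:40417937-40418096, - strand: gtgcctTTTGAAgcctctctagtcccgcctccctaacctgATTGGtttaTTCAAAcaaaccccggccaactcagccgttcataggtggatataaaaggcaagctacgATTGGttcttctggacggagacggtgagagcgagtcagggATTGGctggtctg
ANLN, chr7:36389822-36389851, + strand: gctcggcgctgaaaTTCAAATTTGAAcggc
CCNB1, chr5:69167010-69167134, + strand: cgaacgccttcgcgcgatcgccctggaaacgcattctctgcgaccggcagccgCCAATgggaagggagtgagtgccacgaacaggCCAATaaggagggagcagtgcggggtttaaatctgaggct

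The comparison of OGTi with control asked whether OGT inhibition changed these mRNAs. Values are normalized counts, that is, counts divided by a size factor per library, and log2 fold changes (log2 FC) of OGTi over control are given with their standard error from DESeq2. A gene was called when its q-value, the Benjamini-Hochberg adjusted p-value over all genes, was 0.05 or lower. Over all genes with a q-value, 46.6% were called, 24.0% lower and 22.7% higher, and among genes averaging 1000 normalized counts or more, 33.1% were called lower. Against this background all 10 mitotic genes were called lower, with a median log2 FC of -0.93 beside 0.0045 for all genes tested. The 4 OGTi libraries were all below the 4 control libraries for 9 of the 10, which held for 20.2% of all genes. A fall of 2-fold or more was called for 4 of the 10 (AURKA, PLK1, ANLN and CCNB1) and for 4.48% of all genes. CCNB1 stood at the limit and was under 2-fold in 9 of 13 other settings, which left 3, and without replicate 2 CCNB2 passed it as well.

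**Figure D1:**
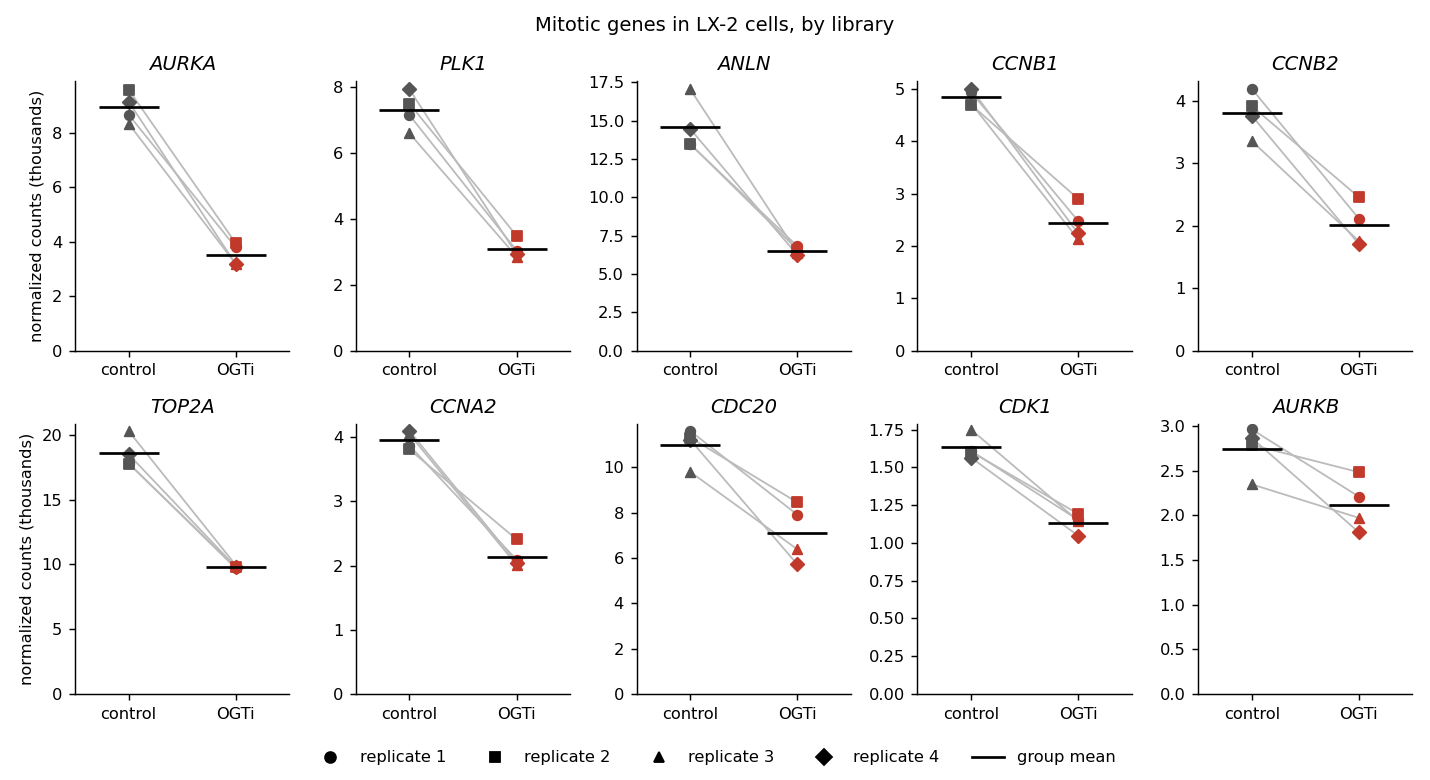
Normalized counts (linear axes from 0, in units of 1000 counts) of the 10 mitotic genes in each library, control in grey and OGTi in red, with marker shape for the replicate, grey lines joining libraries of the same replicate and black bars for the group means. The groups are separate in every gene except AURKB, where OGTi replicate 2 (2482) lies above control replicate 3 (2347).

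Among the kinases, AURKA, which matures centrosomes and builds the spindle poles, had the largest fall. The gene lies on chr20:56369389-56392337 (hg38, minus strand). Its normalized counts were 8653, 9569, 8326 and 9131 in control replicates 1 to 4 and 3789, 3943, 3181 and 3173 in OGTi replicates 1 to 4. Even the highest OGTi library was below the lowest control library by a wide margin. The log2 FC was -1.35 ± 0.075 (q = 3.29e-69, 95% interval -1.49 to -1.20).

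PLK1, the Polo-like kinase that acts from mitotic entry to cytokinesis, lies on chr16:23677656-23690367 (plus strand). It had 7153, 7499, 6596 and 7932 counts in control and 3041, 3490, 2859 and 2937 in OGTi. The groups did not overlap, and the log2 FC was -1.24 ± 0.075 (q = 7.82e-59). AURKA and PLK1 ranked 35 and 51 among all genes ordered from the most negative Wald statistic.

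AURKB, the kinase of the chromosomal passenger complex, lies on chr17:8204733-8210600 (minus strand). It showed the smallest fall of the 10 genes. Its counts were 2962, 2788, 2347 and 2865 in control and 2209, 2482, 1971 and 1808 in OGTi. Control replicate 3 was low and OGTi replicate 2 was high, so that the groups overlapped, although OGTi was lower within each of the 4 replicates. The log2 FC was -0.38 ± 0.092 (q = 0.000173, 95% interval -0.56 to -0.20), and its rank was 1865.

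CDK1, the kinase that starts mitosis, lies on chr10:60778331-60794852 (plus strand) and fell less than its cyclins. Its counts were 1609, 1604, 1750 and 1564 in control and 1152, 1192, 1146 and 1048 in OGTi. The libraries of each group were close together and the groups did not overlap. The log2 FC was -0.52 ± 0.086 (q = 8.63e-09), which left 69.5% of control.

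CCNB1, the main cyclin partner of CDK1 in mitosis, lies on chr5:69167135-69178245 (plus strand). It had 4937, 4698, 4724 and 5003 counts in control and 2476, 2899, 2128 and 2240 in OGTi. OGTi replicate 2 was the highest treated library, still far under every control. Its log2 FC of -1.0 ± 0.088 (q = 2.91e-28) left 50.0% of control.

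CCNB2, the second B-type cyclin, found largely at the Golgi, lies on chr15:59105126-59125045 (plus strand). Its counts were 4197, 3919, 3360 and 3766 in control and 2116, 2461, 1755 and 1709 in OGTi. As in AURKB, control replicate 3 was the lowest control and OGTi replicate 2 the highest treated library, but here the groups stayed apart. CCNB2 had a log2 FC of -0.93 ± 0.087 (q = 2.92e-25).

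CCNA2, the cyclin of S and G2 phase, lies on chr4:121816444-121823883 (minus strand). It had 3870, 3809, 4050 and 4098 counts in control and 2092, 2409, 2008 and 2045 in OGTi. The controls lay within a narrow range, well above all 4 treated libraries. This gave a log2 FC of -0.89 ± 0.082 (q = 1.24e-25).

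CDC20, the APC/C activator whose action starts anaphase, lies on chr1:43358981-43363203 (plus strand). Its counts were 11599, 11305, 9791 and 11209 in control and 7902, 8444, 6378 and 5711 in OGTi. The treated libraries spread widely, with replicates 3 and 4 lowest, and did not overlap with control. CDC20 was at 64.1% of control, a log2 FC of -0.64 ± 0.086 (q = 1.46e-12).

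TOP2A, which untangles sister DNA molecules before they part, lies on chr17:40388525-40417896 (minus strand). It had the highest counts of the 10, with 17819, 17793, 20301 and 18505 in control and 9700, 9797, 9945 and 9805 in OGTi. The 4 treated libraries were almost equal. TOP2A had a log2 FC of -0.92 ± 0.064 (q = 1.42e-44), with the smallest standard error of the 10.

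ANLN, anillin, a scaffold that ties actin, myosin and septins to the cleavage furrow, lies on chr7:36389821-36453791 (plus strand). Its counts were 13465, 13486, 17046 and 14457 in control and 6815, 6597, 6395 and 6242 in OGTi. Control replicate 3 stood above the other controls here, the reverse of its place in AURKB and CCNB2. The log2 FC was -1.16 ± 0.080 (q = 2.19e-45), which left 44.8% of control.

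Together the 10 genes took 0.289, 0.289, 0.282 and 0.285% of all counts in the control libraries and 0.163, 0.170, 0.147 and 0.146% in the OGTi libraries. The treated share was 54.8% of the control share, with no test made on this sum of chosen genes. In every one of the 4 replicates, each of the 10 genes was lower in OGTi than in the control library of the same replicate. The share of all genes with this pattern was not taken, and some genes that were not called also had it, such as FZR1 and RRM1.

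The size of the fall was compared between the genes. The ratio of OGTi to control was taken within each replicate, and the ranges of the 4 log2 ratios were compared for the 45 pairs of genes. They were apart for 22 pairs, and for 33 pairs the same gene fell more in all 4 replicates. As 4 pairs cannot give an exact two-sided p below 0.125, these orders are given without a test.

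The Aurora kinases were among the pairs whose ranges were apart. The log2 ratio of AURKA was -1.19, -1.28, -1.39 and -1.52 in replicates 1 to 4, and that of AURKB was -0.42, -0.17, -0.25 and -0.66. AURKA was thus lower than AURKB by 0.77 to 1.14 on the log2 scale in every replicate. AURKA and PLK1, in contrast, had overlapping ranges, with a mean difference of -0.10 and AURKA the lower in 3 of 4.

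CDK1 and its cyclins also fell by unequal amounts. The ratio of CDK1 was -0.48, -0.43, -0.61 and -0.58, and that of CCNB1 was -1.0, -0.70, -1.15 and -1.16, so that their ranges were apart and CDK1 was the less reduced by 0.27 to 0.58. CCNA2 and CDK1 were apart as well, by 0.37 on average. CCNB1 and CCNB2 overlapped, with a mean difference of only -0.07.

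**Figure D2:**
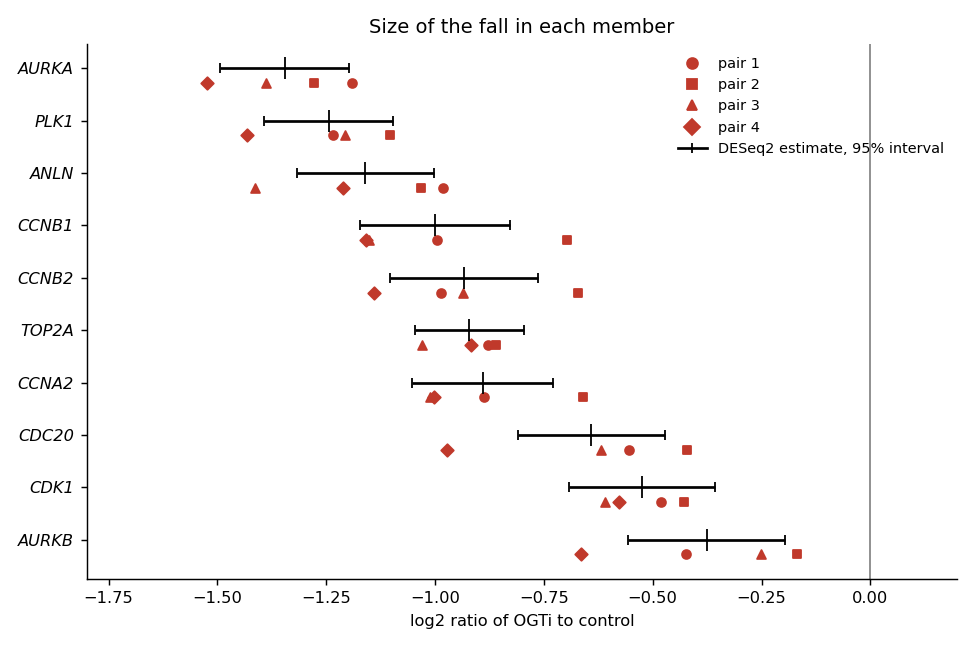
Log2 ratio of OGTi to control for each of the 10 genes, with red markers for the 4 replicate pairs and a black line for the DESeq2 estimate with its 95% interval; the grey line marks no change. AURKA (-1.35), PLK1 (-1.24) and ANLN (-1.16) lie farthest to the left, CDC20 (-0.64), CDK1 (-0.52) and AURKB (-0.38) nearest to 0, and replicate 2 has the weakest fall in 8 of the 10 genes.

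Levels were compared between genes on a length scale, as counts per kilobase of the canonical GENCODE transcript, scaled to the same total in every library. In control, CDC20 had the highest level (665 ± 44.4), followed by AURKA (438 ± 28.2), PLK1 (337 ± 23.8), TOP2A (326 ± 23.2) and ANLN (309 ± 38). CCNB2 (256 ± 21.9), CCNB1 (238 ± 3.9) and AURKB (220 ± 19.8) came next, and CCNA2 (144 ± 4.8) and CDK1 (86.3 ± 5.3) were lowest. The neighbours PLK1 and TOP2A, TOP2A and ANLN, CCNB2 and CCNB1, and CCNB1 and AURKB overlapped between libraries, and the other neighbours did not.

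In OGTi the same scale gave 444 ± 69.5 for CDC20, 179 ± 16.6 for AURKA, 178 ± 5.3 for TOP2A, 176 ± 19.8 for AURKB, 147 ± 10.3 for PLK1, 142 ± 4.3 for ANLN, 139 ± 20.8 for CCNB2, 124 ± 14.5 for CCNB1, 80.3 ± 5.1 for CCNA2 and 62.0 ± 1.9 for CDK1. CDC20 stayed first and CDK1 last, while AURKB moved up among the genes that had been above it. From AURKA down to CCNB1 all neighbours overlapped, and only CDC20, CCNA2 and CDK1 stood clear of theirs.

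The balance between related genes was compared by ratios in each library. On the length scale, the ratio of AURKA to AURKB was 1.79 to 2.17 in the control libraries and 0.971 to 1.07 in the OGTi libraries, so that the groups did not overlap. The ratio of CCNB1 to CCNB2 was 0.863 to 1.03 against 0.858 to 0.961, which overlapped. TOP2A over TOP2B, the related topoisomerase gene, was 7.55 to 9.38 against 5.83 to 6.92. CDC20 over FZR1, the activator that keeps the APC/C on after mitosis, was 11.1 to 12.5 against 7.22 to 8.82. CDK1 over CDK2 was 0.471 to 0.557 against 0.348 to 0.544 and overlapped. Within replicates, however, both ratios that overlapped were lower in OGTi in all 4 pairs, by a log2 change of -0.47 to -0.03 for CDK1 over CDK2 and of -0.21 to -0.0083 for CCNB1 over CCNB2.

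Of the 11 related genes tested, 5 were called lower, 2 higher and 4 were not called, with a median log2 FC of -0.24. Over all genes with a q-value, 24.0% were called lower and 22.7% higher. The Polo-like family split. PLK2 (log2 FC -1.31 ± 0.070, q = 1.22e-76) and PLK4, the kinase of centriole duplication (-0.78 ± 0.090, q = 6.14e-17), fell. PLK3, a stress-responsive kinase, rose from 339 ± 61.4 to 1081 ± 151 normalized counts (1.68 ± 0.13, q = 1.41e-36). The ratio of PLK1 to PLK3 per length therefore went from 20.5 to 28.5 in control to 2.61 to 3.49 in OGTi.

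TOP2B fell (-0.51 ± 0.085, q = 2.63e-08). CDK2 was called lower (-0.24 ± 0.079, q = 0.00748), and its q was 0.105 without the replicate block. FZR1 was not called (-0.11 ± 0.079, q = 0.275). AURKC, the germline Aurora kinase, was barely expressed, with means of 14.2 and 24.6 counts (0.89 ± 0.52, q = 0.160). CCNB3 was also low, at 17.4 and 36.5 counts, and was called higher (1.02 ± 0.45, q = 0.0490), a call that leaving out any single replicate ended (q from 0.0559 to 0.253). CCNA1, with about 2 counts, received no q-value.

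Many pairs of these genes also varied together within the groups, but the genes did not form a single block. After the group mean was removed, the Pearson r of log2 normalized counts over the 8 libraries had a median of 0.55 over the 45 pairs and ran from -0.60 (AURKB and TOP2A) to 0.96 (AURKB and CCNB2). It was above 0 for 33 pairs and at least 0.7 for 18. The same r was not taken for pairs of other genes, and differences between replicate numbers were not removed. Whether these genes varied together more than other genes did was therefore not tested. CDC20, CCNB2, AURKB, AURKA, CCNB1 and PLK1 formed one set, with r of 0.95 for CDC20 and CCNB2 and 0.90 for AURKA and CDC20. TOP2A and ANLN went together at 0.90. TOP2A was negatively correlated with each gene of the first set, from -0.60 with AURKB to -0.15 with CCNB1, and ANLN was close to 0 or negative, from -0.33 with AURKB to 0.12 with CCNB1, while CDK1 was closer to ANLN (0.71) than to CCNB1 (0.37).

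A few libraries held the largest deviations. Control replicate 3 deviated from the control mean by 0.23 for ANLN and 0.13 for TOP2A on the log2 scale, and by -0.22 for AURKB, -0.18 for CCNB2 and -0.16 for CDC20. OGTi replicate 2 was high for CCNB2 (0.31), CDC20 (0.27), CCNB1 (0.26) and AURKB (0.24), and OGTi replicate 4 was low for CDC20 (-0.30), CCNB2 (-0.22) and AURKB (-0.22). Libraries also differed in how their deviations followed the GC content of transcripts. Over 10677 genes, the Spearman rho of a library's deviation with transcript GC was 0.32, 0.15, -0.46 and -0.03 in control replicates 1 to 4 and 0.16, 0.32, 0.01 and -0.54 in OGTi replicates 1 to 4. OGTi replicate 3, at a rho near 0, was also low for CCNB1 and CCNB2 (-0.18 for both). The canonical transcripts of TOP2A, ANLN and CDK1 had 38.9, 39.8 and 35.4% GC. In the first set GC ran from 41.9% (CCNB1), 44.4% (AURKA) and 45.2% (CCNB2) to 55.7% (AURKB), 56.9% (CDC20) and 57.1% (PLK1), and CCNA2 had 41.9%, so that the set held genes of both low and high GC. The part of GC content in these correlations was not tested, and all 10 calls remained in a fit that left out control replicate 3 and OGTi replicate 4 and also the replicate block, where the log2 FC had a median of -0.90.

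**Figure D3:**
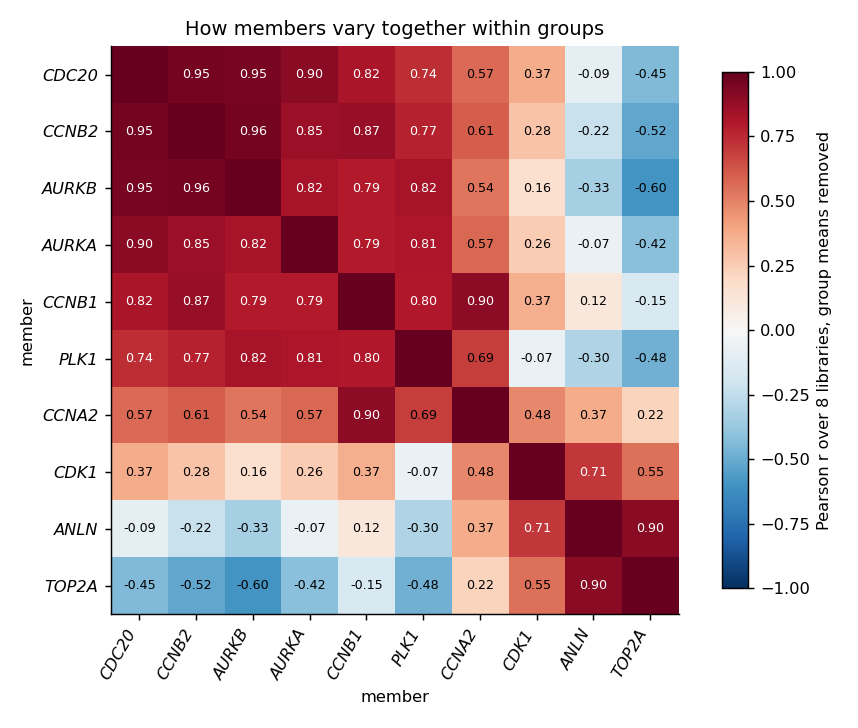
Pearson r between the log2 normalized counts of each pair of the 10 genes over 8 libraries after removal of the group means, from blue (-1) to red (1). The upper left block from CDC20 to PLK1 holds values of 0.74 to 0.96, and TOP2A and ANLN (0.90) form a separate corner with r at or below 0.12 to those 6 genes.

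Over the 8 libraries with the treatment included, the 5 other genes most like the mean of the 10 were ANAPC15, which encodes an APC/C subunit (r = 0.998, log2 FC -1.75), RPL26L1 (0.997, -0.75), the activin antagonist gene FST (0.996, -2.30), RASL10B (0.996, -0.98) and the acetyltransferase gene KAT5 (0.995, -0.67). Each of them fell, which any gene so chosen must in libraries split by treatment. With the group means removed, the most similar were RPL23 (0.989), SPAG5, which encodes a spindle protein (0.981), ABCB9 (0.974), ANAPC15 (0.970) and POP7 (0.958). RPL23 (log2 FC -0.08, q = 0.384) and POP7 (0.02, q = 0.877) were not called, and ABCB9 rose (0.83), whereas SPAG5 (-0.59) and ANAPC15 (-1.75) fell. These 5 genes thus shared no direction of the treatment effect, and the relation over other genes was not tested. Within groups the genes closest to the mean of the other 9 were CCNB1 (0.93) and CDC20 (0.90), and TOP2A was the least close (-0.26).

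The other genes of the mitotic machinery were described in 5 lists. Of their 73 genes tested, 52 were called lower, 2 higher and 19 were not called, whereas 24.0% of all genes with a q-value were called lower. The median log2 FC of the 73 was -0.50 beside 0.0045 for all genes tested. In the list of CDK1 control and mitotic entry, 9 of 13 were called lower and 0 higher (median -0.52). WEE1, the kinase that holds CDK1 inactive, fell (-0.53 ± 0.095, q = 1.79e-07). PKMYT1, its membrane-bound relative, was called at -0.20 ± 0.089 (q = 0.0458), a call lost under 6 of 13 other settings. Of the phosphatases that release CDK1, CDC25B fell (-0.68 ± 0.077, q = 2.73e-17), whereas CDC25A (-0.08, q = 0.547) and CDC25C (-0.11, q = 0.402) were not called. Of the small CDK1-binding proteins, CKS2 fell (-0.52 ± 0.089, q = 3.05e-08) and CKS1B was not called (-0.18, q = 0.0772).

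Among cofactors of the Aurora and Polo kinases, 9 of 11 were called lower and 0 higher (median -0.73), beside 24.0% lower over all genes with a q-value. The rest of the chromosomal passenger complex fell by more than its kinase AURKB, for which the difference was not tested. INCENP, the complex's scaffold, had -0.82 ± 0.095 (q = 1.09e-16), BIRC5, survivin, had -0.94 ± 0.082 (q = 1.93e-28), and CDCA8, borealin, had -0.73 ± 0.081 (q = 6.74e-18). TPX2, which activates AURKA on the spindle, fell by less than AURKA (-0.74 ± 0.074, q = 3.97e-22), again without a test of the difference. BORA, which helps AURKA to activate PLK1, fell from 441 ± 21.5 to 270 ± 58.1 counts (-0.73 ± 0.16, q = 1.33e-05).

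The list of the APC/C and mitotic exit was mixed, with 9 of 20 called lower, 2 higher and 9 not called (median -0.12). The share called lower over all genes with a q-value was 24.0%. UBE2C, the E2 enzyme of the APC/C (-1.11 ± 0.087, q = 3.66e-35), and PTTG1, securin (-0.56 ± 0.078, q = 8.69e-12), fell with CDC20. The core subunits ANAPC5 (0.25 ± 0.074, q = 0.00285) and CDC16 (0.32 ± 0.087, q = 0.000767) rose. Other subunits were called lower, namely ANAPC15 (-1.75 ± 0.14, q = 1.98e-35), CDC27 (-0.39 ± 0.081, q = 7.42e-06), CDC23 (-0.21 ± 0.091, q = 0.0405) and ANAPC1 (-0.19 ± 0.081, q = 0.0460). Of these, CDC23 and ANAPC1 lay near the threshold. CDC27, CDC23 and ANAPC1 were named after their values were seen.

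In the cytokinesis list, 16 of 19 were called lower and 0 higher (median -0.56). Over all genes with a q-value 24.0% were called lower, and 33.1% of those averaging 1000 normalized counts or more. PRC1, which bundles the central spindle, had the same log2 FC as ANLN (-1.16 ± 0.069, q = 7.22e-62). ECT2, which switches on RhoA at the furrow (-0.88 ± 0.077, q = 1.15e-28), and its partners in the centralspindlin complex, KIF23 (-0.84 ± 0.079, q = 6.74e-25) and RACGAP1 (-0.70 ± 0.075, q = 1.44e-19), fell too. In the list of chromosome condensation, which TOP2A works with, 9 of 10 were called lower and 0 higher (median -0.48), of which 5 remained called under total-count scaling and 5 without replicate 3.

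**Figure D4:**
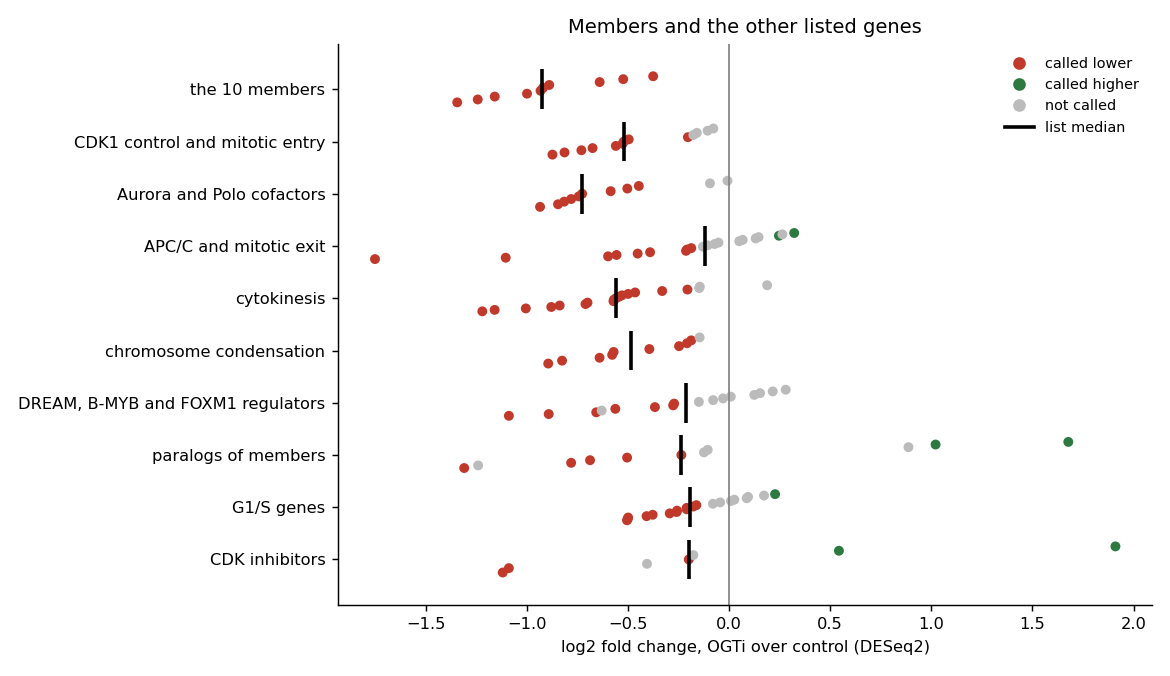
Log2 fold change of OGTi over control for the 10 mitotic genes and for each gene of 9 further lists, 1 point per gene, red for genes called lower, green for genes called higher and grey for genes not called, with a black bar at each list's median. The 10 genes have a median of -0.93, the cofactor list -0.73, and the lists of G1/S genes and CDK inhibitors -0.19 and -0.20.

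Regulators of this gene class had a smaller median change than the 10 genes. In the list of DREAM, B-MYB and FOXM1 regulators, 7 of 16 were called lower, 0 higher and 9 were not called (median -0.21). Lower calls made up 24.0% of all genes with a q-value, and 33.1% of those averaging 1000 normalized counts or more. FOXM1, the G2/M activator, had 27952 ± 379 counts in control and 21698 ± 1433 in OGTi (-0.37 ± 0.063, q = 4.58e-08). MYBL2, which encodes B-MYB, fell from 13755 ± 753 to 7520 ± 1587 (-0.89 ± 0.088, q = 1.37e-22). The DREAM core subunits LIN9 (-0.08, q = 0.684) and LIN54 (-0.03, q = 0.821) were not called. In the same list RBL1 (-0.66 ± 0.083, q = 3.26e-14), TFDP1 (-0.56 ± 0.064, q = 2.51e-17), E2F4 (-0.28 ± 0.081, q = 0.00204) and RBL2 (-0.27 ± 0.082, q = 0.00287) were called lower. NFYB, an NF-Y gene, had the largest fall of the list (-1.09 ± 0.12, q = 4.67e-18), whereas NFYA and NFYC were not called. RBL1, TFDP1, E2F4, RBL2 and the NF-Y genes were named after their values were seen.

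Genes of the G1/S transition, which precede the 10 genes in the cycle, had 12 of 20 called lower, 1 higher (CDC6, 0.23 ± 0.076, q = 0.00829) and 7 not called, with a median of -0.19. This count fell to 5 under total-count scaling and to 6 without replicate 4. Of 7 CDK inhibitor genes, 3 were called lower and 2 higher, beside 24.0% lower and 22.7% higher over all genes with a q-value. CDKN1A, which encodes p21, rose from 1297 ± 240 to 4873 ± 857 counts (1.91 ± 0.076, q = 1.91e-134), and CDKN2B rose by 0.54 ± 0.094 (q = 6.63e-08). CDKN1B, which encodes p27, fell from 2422 ± 182 to 1116 ± 113 counts (-1.12 ± 0.081, q = 2.2e-41), CDKN2C, which encodes p18, from 3507 ± 123 to 1649 ± 93.5 (-1.09 ± 0.080, q = 2.06e-40), and CDKN2A by 0.20 ± 0.067 (q = 0.00778). These 3 were named after their values were seen. The proliferation marker MKI67 had 27170, 37467, 48575 and 42913 counts in control and 23855 to 27420 in OGTi. Its call was borderline (-0.57 ± 0.25, q = 0.0497) and ended under 5 of 13 other settings.

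The promoters of the 10 genes were compared by motifs picked because genes of this class are known to carry them. A high share was thus likely beforehand, and the shares are given as a description. Windows from 250 bases before to 50 bases after the RefSeq start were searched on both strands for TTTGAA and TTCGAA, the CHR letters, and for CCAAT. Of these, TTCGAA reads the same on both strands, and neighbouring matches may share end bases. AURKA had no window in the table and 9 genes did. TTTGAA was found in 6 of 9 (PLK1, CCNB2, CDC20, ANLN, CDK1 and TOP2A), TTCGAA in 0, CCAAT in 8 (all but ANLN) and both kinds in 5. Among all 27305 genes with a window, 19.5% held TTTGAA or TTCGAA, 39.7% held CCAAT and 7.85% held both, and among the 11479 tested genes with a window these shares were 15.8, 42.9 and 6.64%.

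In the promoters printed above, TTTGAA began 29 bases before the start in both PLK1 and CCNB2 and 65 bases before it in CDC20. In CCNB2 the CCAAT letters began at 244, 120, 87 and 54 bases before the start, of which the 3 nearest are in the stretch shown and follow at equal steps. ANLN held TTTGAA on both strands side by side, at -26 and -20. In TOP2A 4 CCAAT matches lay on the other strand, at -244, -160, -93 and -53, of which the 3 nearest are in the stretch shown. AURKB held CCAAT alone, and CCNA2 held it once, on the other strand at -56.

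Of the 61 other listed mitotic genes with a window, 34 (55.7%) held CHR letters, 43 (70.5%) held CCAAT and 23 (37.7%) held both. Of 16 G1/S genes, 2 held CHR letters and 10 held CCAAT. CHR letters were in the windows of 18.4% of genes called lower and 12.8% of genes called higher. The 3 genes with a window but neither TTTGAA nor TTCGAA, CCNB1, CCNA2 and AURKB, included both a 2-fold fall and the smallest fall. Other spellings of the CHR were not searched, so these genes are not shown to lack it. These matches are descriptions of letters and not of bound sites.

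**Figure D5:**
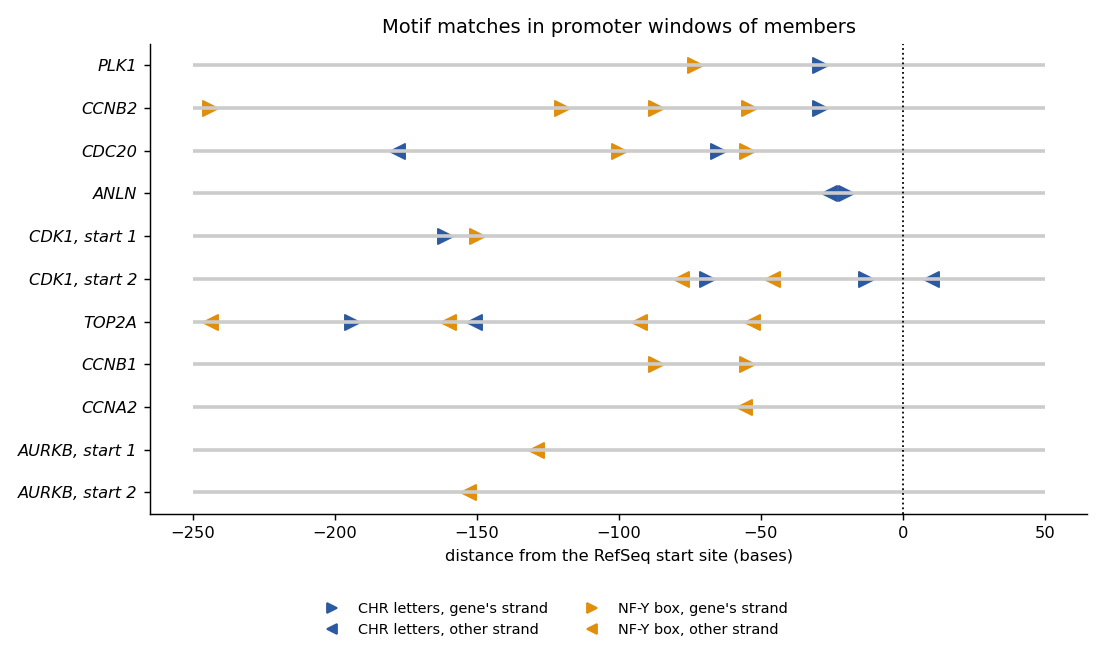
Position of CHR letters (blue) and CCAAT boxes (orange) in the promoter windows of 9 mitotic genes, with distance from the RefSeq start in bases on the horizontal axis, triangles pointing right for the gene's own strand and left for the other strand, and a separate line for each start site. Between 100 bases before and 50 bases after a start, 5 of the 9 genes held CHR letters and 7 held CCAAT, counting every start site.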

How the data were processed

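Polyadenylated RNA of 8 LX-2 libraries was sequenced from both ends after strand-specific preparation. Reads were aligned by the authors to hg38 with Bowtie2 2.3.5.1 and counted with RSEM 1.3.1, and the authors deposited 1 file of expected counts per library, not scaled for depth. RSEM divides reads that fit several genes, and of the 10 genes only AURKA had fractional values (2 libraries). A deposited comparison table made with DESeq2 1.36.0 (means, fold changes, standard errors, Wald statistics and p-values) was not used.

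Expected counts were rounded, genes with a total under 10 were left out, and 14895 genes were compared with the Wald test of DESeq2 1.42.0 in R 4.3.3, with replicate number as a block, median-of-ratios size factors, independent filtering and no shrinkage. A q of 0.05 or lower over all genes was the threshold, and 14028 genes received a q. The study's methods pair the treated and control samples of a replicate. Deviations from the group mean over 10994 genes correlated between libraries of the same number at 0.372, 0.391, 0.165 and 0.327 (Pearson r across genes, which are not independent replicates). Depth was 24166756 to 28201215 counts, and each of the 10 genes had at least 1048 normalized counts in every library. No libraries of a group were duplicates (chi-square per degree of freedom 9.75 to 41.7). Intervals are the estimate with its 95% normal limits.

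The 10 genes, the lists and the promoter motifs were chosen with earlier results of these data known. Named besides the 10 were partners, regulators and paralogs fixed by name, genes called against the direction of their list, and the 5 genes most like the mean of the 10, with and without group means removed, among genes averaging 100 counts or more. Some further genes were named after their values were seen, as stated with each. PLK5 had no row. Lists are described by counts and medians, with no set test. Positions and lengths came from GENCODE 44 (hg38), and 94.1% of genes had a length. Alternatives were edgeR 4.0.16, fits without the block, TMM and total-count scaling, other filters and rounding, and each replicate left out. The fit was tested on simulated data.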

Additional observations from a re-analysis of the deposited data

How the results depend on the processing

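Each of the 10 mitotic genes kept its call and its direction under all 13 alternatives, that is, edgeR's quasi-likelihood test, TMM or total-count scaling, other filters and rounding, each replicate left out, and, chosen after seeing the data, a fit without control replicate 3, OGTi replicate 4 and the replicate block. The log2 fold change ranged from -1.40 to -1.26 for AURKA and from -0.45 to -0.28 for AURKB, whose largest q was 0.0201. Without the replicate block, 6307 genes were called by DESeq2 and 6045 by edgeR in place of 6541, all 10 mitotic genes among them. Genes named after their values were seen were not followed here. Of the other named genes, CDK2 (q = 0.105) and, with edgeR, PKMYT1 (q = 0.0519) lost their calls when the block was dropped. PKMYT1 also lost its call in settings that kept the block. With 1 replicate left out, 5127 to 5690 genes were called.

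Total-count scaling moved the median of all genes to 0.095 and turned the split of called genes to 2563 lower and 4043 higher, or 38.8% lower in place of 51.4%. Under it 5 genes of chromosome condensation, 3 related genes and 5 G1/S genes were called lower, in place of 9, 5 and 12. With 1 replicate left out, these counts were 5 to 8, 3 to 5 and 6 to 10, and in the fit without control replicate 3, OGTi replicate 4 and the block the G1/S count was 6, where dropping the block alone gave 11. The share of the 10 genes in the controls was 0.294% with DESeq2 size factors and 0.286% of library totals. Of 425 other values for named genes, apart from those named after their values were seen, 403 kept their side of the threshold. Another 22 no longer passed it (PKMYT1, CDK2, CCNB3 and MKI67) and 0 reversed, and the causes were not tested.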
